A study of Mus musculus with 6 samples.

Results

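The peroxiredoxins and their partner enzymes of redox defence were followed as 10 genes: Prdx1, Prdx2, Prdx4, Prdx5, Prdx6, Txn1, Txnrd1, Gpx1, Gpx4 and Sod1. They were taken by exact gene symbol from the expression tables, where all 10 were found among 24346 symbols. The tables cover 6 RNA-seq libraries of mouse splenic plasma cells, 3 sorted as IgM and 3 as IgG1. All came from congenically marked B1-8germ B cells, which carry a rearranged heavy chain recognising the hapten NP and were placed in C57BL/6J wild-type hosts immunised with NP-CGG in alum at the start. Donor-derived cells of both groups were taken from the spleen on day 7, so the groups share donor genotype, host strain, antigen and time and differ in the sorted isotype. Which animals and which sorting or preparation batch each library came from is unknown here. A batch that went with the isotype could not be told apart from it. Values are FPKM, fragment numbers corrected for transcript length and library size, so that levels can be compared between genes.

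Peroxiredoxins reduce hydrogen peroxide with a reactive cysteine that is oxidised in the act. In most of them the oxidised cysteine is restored by thioredoxin, which is in turn reduced by thioredoxin reductase with electrons from NADPH. Glutathione peroxidases do similar work with glutathione and, in mammals, often carry selenocysteine in the active site, and superoxide dismutase makes hydrogen peroxide from superoxide. Plasma cells form disulfide bonds in antibody chains in the endoplasmic reticulum (ER), where the oxidase that drives this reaction releases hydrogen peroxide and Prdx4 can consume it.

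The cells were first checked against markers. Transcripts of the 8 plasma cell markers in the tables summed to between 44301 and 50167 FPKM in the IgM and between 36772 and 39346 in the IgG1 libraries. Of these 8, 5 fell in IgG1 cells, beside 1.76% of all tested genes. These were Tnfrsf17, Prdm1, Jchain, Irf4 and Slamf7, with log2 fold changes of -2.92 to -0.60, while Sdc1, Xbp1 and Mzb1 did not pass the test. The 8 B cell markers summed to between 124 and 153 FPKM in IgM and between 97.5 and 124 in IgG1 libraries. No symbol of an immunoglobulin heavy chain was analysed here, so the sorted isotype was not checked. Erythroid cells are rich in Prdx2, and 10 erythroid markers summed to between 0.778 and 4.75 FPKM in the IgM and between 2.48 and 3.18 in the IgG1 libraries, with Car1 and Klf1 at 0 in all 6. The 10 macrophage and monocyte markers summed to between 68.2 and 74.1 FPKM in IgM and between 44.0 and 47.1 in IgG1 libraries. Most of that sum was Cd68, with 57.8 ± 1.46 FPKM in IgM and 38.3 ± 3.56 in IgG1 libraries. Csf1r was at 2.14, 1.11 and 1.56 FPKM in IgM and at 0, 0 and 0.0162 in IgG1 libraries, and Lyz2 at 4.89, 4.77 and 8.44 against 5.07, 0.160 and 0.309. C1qb went the other way by its mean, at 3.38, 3.02 and 1.74 FPKM in IgM and 1.07, 2.54 and 9.06 in IgG1 libraries. The groups overlapped for C1qb, C1qa, C1qc and Itgam. Cd68, Csf1r and Vcam1 had every IgG1 library below every IgM library, as had 13.5% of all tested genes. Lyz2, Csf1r, Cd68, C1qb and C1qc were tested, and none passed. Adgre1, Itgam, C1qa, Fcgr1 and Vcam1 were too low to be tested, and Adgre1 and Fcgr1 stayed at or near 0. The part of these markers in the results was not tested. In bulk libraries, a change in the share of cells of a type and a change of RNA per cell cannot be told apart.

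Promoter windows are shown for the 2 members that passed the test, Prdx2 and Gpx4, and for the 2 most abundant peroxiredoxins, Prdx1 and Prdx4, which did not. Each is the RefSeq window of GRCm38.p6 from 250 bases before to 50 bases after an annotated start, 5′ to 3′ on the strand of the gene. For Gpx4, 1 of several windows is shown. Close to the start of the Gpx4 and Prdx1 windows shown no GENCODE transcript begins, while 1 of 4 does for Prdx2 and 1 of 1 for Prdx4. Positions given below therefore hold for the RefSeq start only. Capitals mark matches on either strand to the antioxidant response element core TGACNNNGC, the AP-1 site TGANTCA, the CCAAT box and the GC box GGGCGG.
Prdx2 (chr8:84969372-84969671, plus strand): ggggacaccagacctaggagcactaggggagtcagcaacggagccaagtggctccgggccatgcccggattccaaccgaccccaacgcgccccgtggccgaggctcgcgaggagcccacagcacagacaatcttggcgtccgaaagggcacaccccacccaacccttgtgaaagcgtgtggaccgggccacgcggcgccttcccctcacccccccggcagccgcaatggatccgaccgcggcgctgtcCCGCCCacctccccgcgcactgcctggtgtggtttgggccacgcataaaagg
Gpx4 (chr10:80053315-80053614, plus strand): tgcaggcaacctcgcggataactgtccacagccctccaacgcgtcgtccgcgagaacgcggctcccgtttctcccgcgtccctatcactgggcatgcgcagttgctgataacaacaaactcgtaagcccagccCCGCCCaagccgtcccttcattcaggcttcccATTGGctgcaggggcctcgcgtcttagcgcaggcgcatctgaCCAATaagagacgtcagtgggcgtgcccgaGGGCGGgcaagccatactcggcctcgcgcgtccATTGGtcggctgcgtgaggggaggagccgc
Prdx1 (chr4:116685349-116685648, plus strand): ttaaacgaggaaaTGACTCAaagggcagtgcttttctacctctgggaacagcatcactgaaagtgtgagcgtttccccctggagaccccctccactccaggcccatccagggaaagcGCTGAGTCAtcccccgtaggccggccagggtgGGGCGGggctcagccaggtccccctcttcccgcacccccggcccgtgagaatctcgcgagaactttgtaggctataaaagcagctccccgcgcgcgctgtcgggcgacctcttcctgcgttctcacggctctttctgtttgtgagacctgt
Prdx4 (chrX:155338411-155338710, minus strand): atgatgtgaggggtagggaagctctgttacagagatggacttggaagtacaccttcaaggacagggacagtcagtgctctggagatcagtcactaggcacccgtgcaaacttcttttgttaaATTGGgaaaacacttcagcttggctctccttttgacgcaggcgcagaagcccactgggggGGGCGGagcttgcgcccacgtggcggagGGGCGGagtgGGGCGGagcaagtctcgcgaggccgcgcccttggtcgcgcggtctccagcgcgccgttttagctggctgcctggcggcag

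RefSeq windows were found for 9 of the 10 members, 14 windows in all, since Gpx4 and Txnrd1 have several. The response element core, the sequence class bound by the oxidative stress factor NRF2, matched in 3 of these genes (Prdx1, Sod1 and Txnrd1). By window it matched in 3 of the 14 and in 12.39% of all 32851 windows of this length. In Prdx1 the match GCTGAGTCA at position -133 from the start contains an AP-1 match at -131, and a second AP-1 match lies at -237, while 7.81% of all windows hold an AP-1 match. Prdx2 and the Gpx4 window shown hold no match to the response element core or AP-1 in these letters. The GC box matched in at least 1 window of all 9 genes, in 11 of the 14 windows and in 35.66% of all windows. The CCAAT box matched in 4 genes, among them Gpx4 and Prdx4, in 6 of the 14 windows and in 37.41% of all windows.

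Prdx1 and Prdx4 were the most abundant members in both kinds of plasma cell, ahead of Gpx1. In IgM cells the order of mean FPKM was Prdx4 (949), Prdx1 (900.4), Gpx1 (551), Prdx2 (322), Txn1 (281), Gpx4 (204), Sod1 (178), Prdx5 (98.0), Prdx6 (82.4) and Txnrd1 (23.8). The library ranges of 3 neighbouring pairs overlapped there, Prdx4 with Prdx1, Gpx4 with Sod1 and Prdx5 with Prdx6. In IgG1 cells the order was Prdx1 (979), Prdx4 (821), Gpx1 (746), Prdx2 (537), Gpx4 (346), Txn1 (316), Sod1 (263), Prdx5 (118), Prdx6 (88.9) and Txnrd1 (21.8). Here the ranges of Prdx1 with Prdx4, Prdx4 with Gpx1, Gpx4 with Txn1 and Txn1 with Sod1 overlapped. Among the 9087 genes with at least 1 FPKM in at least 3 libraries, all 10 members included, Prdx1 ranked 150 in IgM and 179 in IgG1 cells and Prdx4 139 and 208, while Txnrd1 ranked 3242 and 3383. Gpx4 moved from rank 600 to 441 and Prdx2 from 415 to 316.

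Of the 10 members 2 rose in IgG1 plasma cells, Prdx2 and Gpx4, and 0 fell. Limma on log2(FPKM + 1) with Benjamini-Hochberg adjustment over all 9087 genes called 4.26% of genes higher and 1.76% lower at adjusted p under 0.05. By unadjusted p under 0.05, 4 members were higher and 0 lower, beside 11.9% and 10.2% of all tested genes. In 4 members (Prdx2, Gpx1, Gpx4 and Sod1) every IgG1 library lay above every IgM library, against 13.7% of all tested genes, and in 0 every one lay below, against 13.5%. Positive log2 fold changes were found for 8 members and for 46.3% of all tested genes. The median log2 fold change was 0.22 over the members and -0.05 over all tested genes, but -0.01 over the members, against -0.25 over all genes, when each library was rescaled to the same sum without Jchain.

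**Figure D1:**
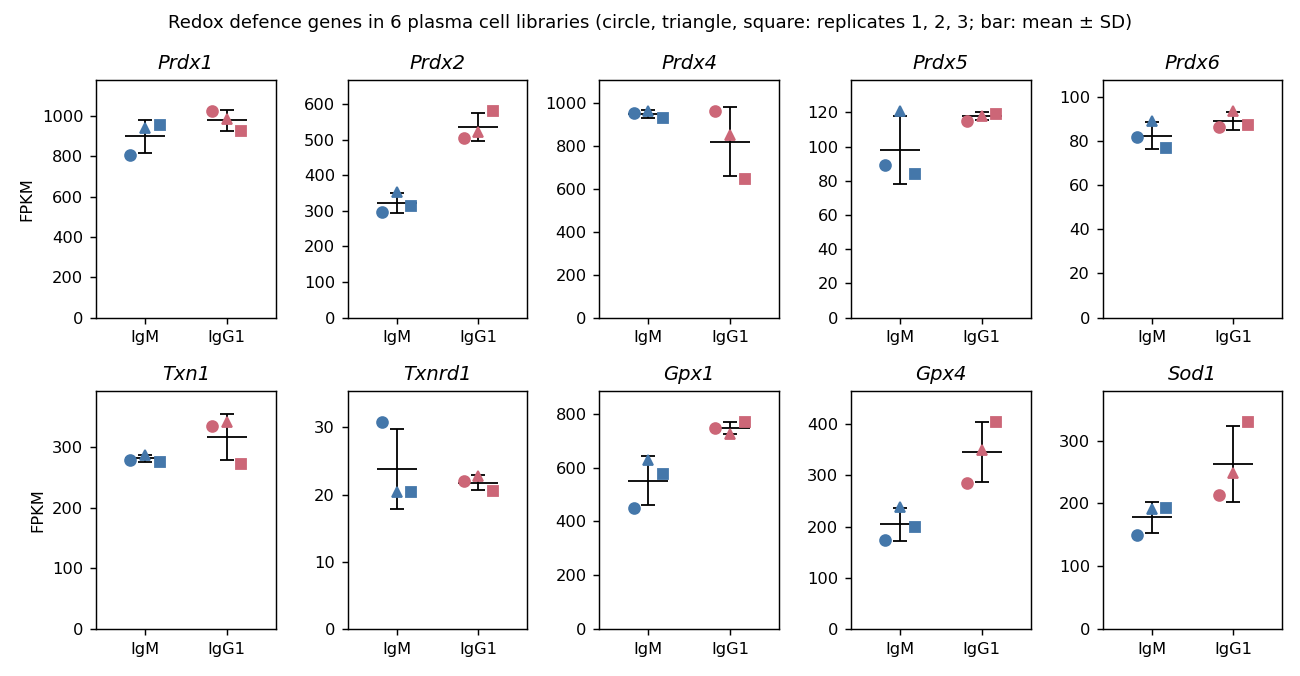
FPKM (vertical axis, from 0) of the 10 redox defence genes in each of the 6 libraries, with symbols for replicates 1 to 3 and a bar for the mean ± SD of each group. IgG1 and IgM libraries do not overlap for Prdx2, Gpx1, Gpx4 and Sod1, and they overlap for the other 6 genes.

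Transcript length moved with the groups. The deviation of a library's genes from their means correlated with transcript length across genes, with Spearman rho of 0.307, 0.146 and 0.294 in IgM libraries 1 to 3 and -0.145, -0.176 and -0.237 in IgG1 libraries 1 to 3, so that short transcripts lay higher in IgG1. Genes are not independent replicates, and these values are a description. Member transcripts ran from 641 nt for Sod1 to 3428 nt for Txnrd1, and 9 of the 10 lay under the median of 2488 nt over tested genes. Among the 4522 tested genes under that median, 7.63% were called higher and 1.06% lower, and their median log2 fold change was 0.11. Each member is therefore given below also with the length and GC trend taken out of every library, where 2.01% of 9044 genes were called higher and 0.907% lower.

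Among the peroxiredoxins, the cytosolic enzyme Prdx2 (chr8:84969587-84974834) was at 298, 353 and 314 FPKM in IgM libraries 1 to 3 and at 506, 522 and 582 in IgG1 libraries 1 to 3. The lowest IgG1 library was well above the highest IgM library. The mean was 1.67-fold higher in IgG1, 537 ± 40.0 against 322 ± 28.6 (SD, n = 3 each), with a log2 fold change of 0.74 (SE 0.11, limma adjusted p = 0.00522). It was 0.72 (SE 0.11, adjusted p = 0.00679) with the length and GC trend removed. Leaving out any 1 library gave values of 0.68 to 0.81, with a largest adjusted p of 0.0324. Without the intensity trend in the variance, where the test called 3 genes higher among all, its adjusted p was 0.146, and without the filter on low values, where it called 2, it was 0.0690. The exons of Prdx2 overlap those of Rnaseh2a on the opposite strand, and whether counting was stranded is unknown, so reads of the pair may be mixed. Rnaseh2a was at 29.4 ± 3.24 FPKM in IgM and 34.1 ± 4.30 in IgG1 libraries, and it did not pass the test (log2 fold change 0.20, adjusted p = 0.607). Prdx2 also has 2 annotated pseudogene copies, so its value can be affected by the handling of multiply mapping reads.

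Prdx4 (chrX:155323918-155340754), the peroxiredoxin of the ER, was at 956, 962 and 929 FPKM in IgM libraries 1 to 3 and at 965, 849.8 and 648 in IgG1 libraries 1 to 3. The IgM libraries lay close together, and IgG1 library 1 lay above them while the other two lay below. Its mean was 821 ± 161 in IgG1 against 949 ± 17.8 in IgM (log2 fold change -0.23, SE 0.13, limma adjusted p = 0.355). The 95% interval of that difference ran from -0.52 to 0.07. With the length and GC trend removed the value was -0.37 (adjusted p = 0.133), and after quantile normalization it was -0.55 (adjusted p = 0.0463), the 1 of 18 alternatives that called it lower.

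Prdx1 (chr4:116685544-116700822), an abundant cytosolic peroxiredoxin that also acts as a chaperone, was at 805, 941 and 955 FPKM in IgM and 1027, 987 and 924 in IgG1 libraries. The groups overlapped. Its log2 fold change was 0.12 (95% interval -0.11 to 0.35, limma adjusted p = 0.542). With the length and GC trend removed it was 0.23 (95% interval 0.02 to 0.43, adjusted p = 0.228), and the sign turned under quantile normalization (-0.23) and when the sum without Jchain was used for scaling (-0.11). Prdx5 (chr19:6906697-6910106), found in mitochondria, peroxisomes and cytosol, was at 89.2, 121 and 84.0 FPKM in IgM and 115, 118 and 119 in IgG1 libraries. IgM library 2 lay above all IgG1 libraries, and the log2 fold change of 0.28 (adjusted p = 0.332) became -0.07 with the length and GC trend removed. The exons of Prdx5 overlap those of Trmt112 on the opposite strand, which was at 113 ± 24.4 and 128 ± 10.9 FPKM, and here too reads of the pair may be mixed. Prdx6 (chr1:161240112-161251219), a peroxiredoxin with a single catalytic cysteine and a phospholipase activity, lay between 76.8 and 88.9 FPKM in IgM and between 86.2 and 93.6 in IgG1 libraries (log2 fold change 0.11, 95% interval -0.20 to 0.42, adjusted p = 0.708), and its value was also 0.11 (adjusted p = 0.724) with the trend removed. Prdx3, the mitochondrial peroxiredoxin, which is outside the 10, was at 96.7 ± 14.4 against 116 ± 19.9 (log2 fold change 0.26, adjusted p = 0.407).

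Shares within the family do not depend on a scaling factor between libraries. Prdx4 made up 41.3%, 37.3% and 37.8% of the summed FPKM of Prdx1 to Prdx6 in IgM libraries 1 to 3 and 34.5%, 31.4% and 26.2% in IgG1 libraries 1 to 3. All IgG1 shares lay below all IgM shares. The means were 30.7 ± 4.23% and 38.8 ± 2.19% (n = 3 each), a difference of -8.15 percentage points with an exact two-sided permutation p of 0.1, the smallest that 3 against 3 libraries allow, and 0.3 after adjustment over 3 such values. Prdx2 made up 13.1 ± 0.505% in IgM and 20.3 ± 2.84% in IgG1 libraries, and Prdx1 36.7 ± 2.08% and 36.8 ± 0.425%. Prdx3, Prdx5 and Prdx6 each held between 3.08% and 5.02% in every library. The summed peroxiredoxin FPKM lay between 2313 and 2577 in IgM and between 2476 and 2796 in IgG1 libraries.

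**Figure D2:**
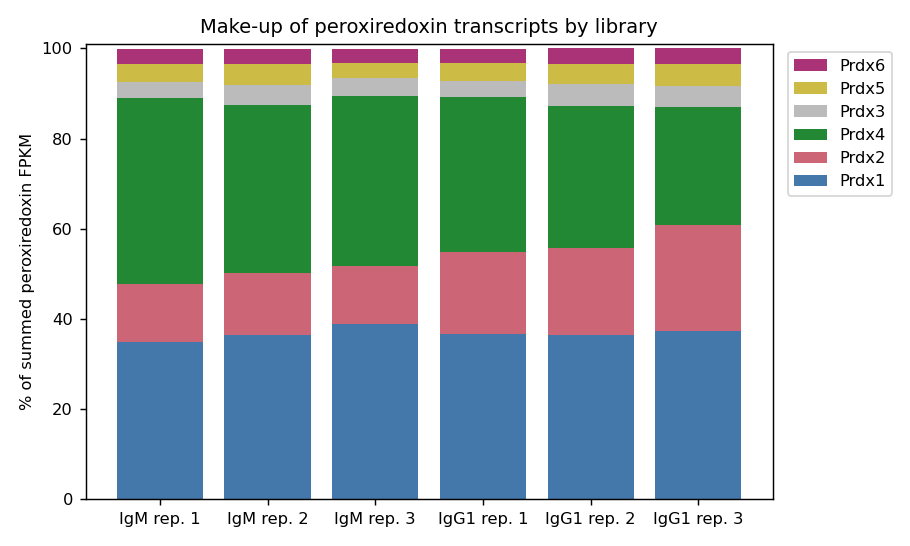
Share (%) of the summed FPKM of Prdx1 to Prdx6 taken by each gene in each of the 6 libraries, with 1 stacked bar per library. The Prdx4 segment is 37.3% to 41.3% in IgM and 26.2% to 34.5% in IgG1 libraries, and the Prdx2 segment 12.8% to 13.7% and 18.1% to 23.5%.

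In the thioredoxin system no member passed the test. Txn1 (chr4:57943373-57956411), the thioredoxin of cytosol and nucleus, was at 279, 287 and 276 FPKM in IgM and 334, 341 and 272 in IgG1 libraries. IgG1 libraries 1 and 2 lay above the IgM libraries and library 3 just below them (log2 fold change 0.16, 95% interval -0.10 to 0.42, limma adjusted p = 0.478). It was 0.12 (adjusted p = 0.614) with the length and GC trend removed. Quantile normalization gave -0.03 for it, and scaling on the sum without Jchain gave -0.07. Txnrd1 (chr10:82833951-82897712), the selenoprotein that reduces thioredoxin, was at 30.8, 20.4 and 20.4 FPKM in IgM and 22.1, 22.7 and 20.6 in IgG1 libraries. IgM library 1 stood above the other 5, and without it the log2 fold change of -0.10 (adjusted p = 0.855) was 0.09. Removing the length and GC trend gave 0.11 (adjusted p = 0.856). The ratio of Txnrd1 to Txn1 FPKM was 0.0850 ± 0.0219 in IgM and 0.0696 ± 0.00539 in IgG1 libraries (n = 3 each, exact two-sided permutation p = 0.3, also 0.3 adjusted over 3 values).

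Of the selenium-dependent glutathione peroxidases, Gpx4 (chr10:80047166-80056439), which reduces lipid hydroperoxides in membranes and guards against ferroptosis, was at 173, 238 and 199.7 FPKM in IgM libraries 1 to 3 and at 286, 349 and 404 in IgG1 libraries 1 to 3. All IgG1 libraries lay above all IgM libraries. Its mean was 1.70-fold higher in IgG1, 346 ± 59.1 against 204 ± 32.8 (SD, n = 3 each), with a log2 fold change of 0.76 (SE 0.16, limma adjusted p = 0.0167). With the length and GC trend removed the log2 fold change was 0.42 (SE 0.12) and the call was lost (adjusted p = 0.0820). The transcript has a median length of 959 nt and a GC content of 58.8%. The call was also lost on leaving out IgM library 1 (0.65, adjusted p = 0.0915), IgM library 3 (0.75, 0.0599), IgG1 library 2 (0.75, 0.0630) or IgG1 library 3 (0.64, 0.0627), without the filter on low values (adjusted p = 0.136) and without the intensity trend (0.176). Gpx4 has 2 annotated pseudogene copies. Prdx1, Prdx6 and Txn1 have 1 each, so the handling of multiply mapping reads can affect these members too.

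Gpx1 (chr9:108338903-108340343), the abundant cytosolic glutathione peroxidase, was at 451, 629 and 575 FPKM in IgM and 747, 723 and 769 in IgG1 libraries. The groups did not overlap, yet the log2 fold change of 0.45 (SE 0.13) missed the threshold (limma adjusted p = 0.0591). Without IgM library 2 it was 0.55 and passed (adjusted p = 0.0358), as it did with the filter at 5 FPKM (0.0439) and after median centring (0.0421), and with the length and GC trend removed it was 0.09 (adjusted p = 0.673). The ratio of Gpx4 to Gpx1 FPKM was 0.384, 0.379 and 0.348 in IgM libraries 1 to 3 and 0.383, 0.483 and 0.526 in IgG1 libraries 1 to 3. IgG1 library 1 lay within the IgM range and the other two above it (exact two-sided permutation p = 0.2, 0.3 adjusted over 3 values).

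Sod1 (chr16:90220754-90226329), the copper and zinc superoxide dismutase of the cytosol, was at 149, 191 and 193 FPKM in IgM and 213, 248 and 329.8 in IgG1 libraries. The groups did not overlap, and IgG1 library 3 was the highest. Its mean was 263 ± 60.1 in IgG1 against 178 ± 24.5 in IgM (log2 fold change 0.55, SE 0.17, limma adjusted p = 0.0774). The value was 0.23 (adjusted p = 0.447) with the length and GC trend removed, and without IgG1 library 1 it was 0.69 and passed the threshold (adjusted p = 0.0409).

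**Figure D3:**
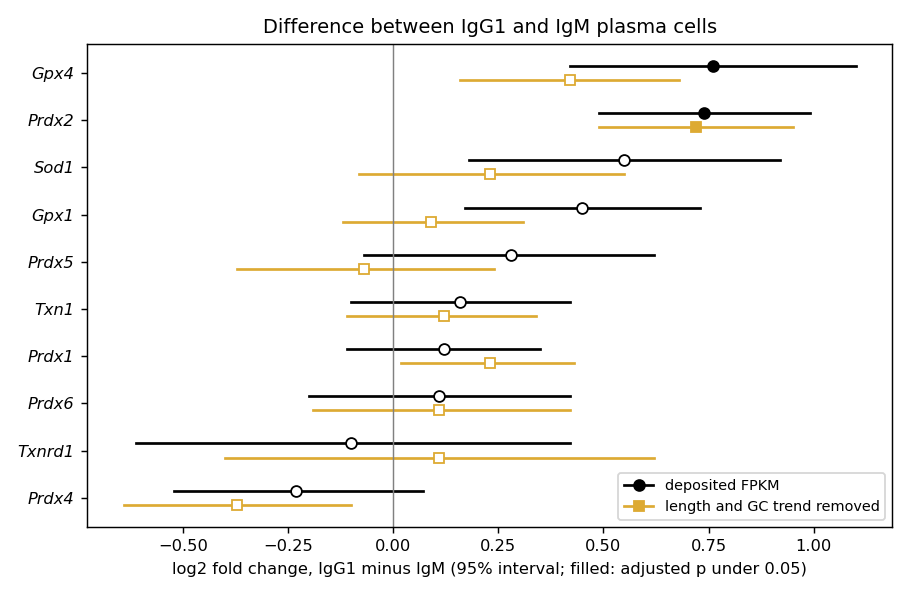
Log2 fold change, IgG1 minus IgM (horizontal axis), with its 95% interval for each of the 10 genes, from deposited FPKM (circles) and after trend removal for transcript length and GC (squares); filled symbols have adjusted p under 0.05. Prdx2 is filled in both (0.74 and 0.72), Gpx4 in the first alone (0.76 and 0.42), and Gpx1 moves from 0.45 to 0.09.

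The wider redox pathways were described by 12 lists, which hold 139 genes beyond the 10 members. Of the 118 that were tested, 6 rose in IgG1 cells (Atox1, Cyba, Gstt2, Idh2, Nudt1 and Pcbp1) and 4 fell (Cybb, Ero1lb, Idh1 and Sepp1), beside 4.26% and 1.76% of all tested genes. Their median log2 fold change was 0.17. With the length and GC trend removed 3 were called higher (Idh2, Pcbp1 and Glrx3, the last named after its value was seen) and 2 lower (Cybb and Sepp1). Leaving out 1 library gave between 0 and 7 called higher and between 1 and 4 called lower.

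Sources of oxidants held calls in both directions. Of 9 tested genes 1 rose and 2 fell (median -0.10), beside 4.26% and 1.76% of all tested genes. With the length and GC trend removed the median was 0.14, and 0 were called higher and 1 lower. The membrane subunits of the phagocyte NADPH oxidase went apart: Cybb, the catalytic subunit, was at 61.6, 65.4 and 65.0 FPKM in IgM and 32.9, 27.3 and 18.3 in IgG1 libraries, and Cyba, its partner, at 713, 839 and 668 against 1048, 1052 and 1247. Cybb fell by 1.30 on the log2 scale (SE 0.22, limma adjusted p = 0.00807). It remained called in each fit without 1 library and with the length and GC trend removed (-0.90, adjusted p = 0.0300). The call was lost without the filter on low values (limma adjusted p = 0.082) and without the intensity trend (0.123). Macrophages also express Cybb. The sum of the macrophage and monocyte markers, most of it Cd68, was 68.2 to 74.1 FPKM in IgM and 44.0 to 47.1 in IgG1 libraries. The part of such cells in the Cybb value was not tested. Cyba rose by 0.59 (SE 0.12, adjusted p = 0.0146), a value of 0.16 (adjusted p = 0.358) with the trend removed. Their transcripts have median lengths of 4752 and 691 nt. Ero1lb, an ER oxidase that makes hydrogen peroxide, fell from 75.9 ± 12.7 to 41.0 ± 6.28 FPKM (-0.87, adjusted p = 0.0204; -0.57 and adjusted p = 0.0902 with the trend removed).

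Among 13 tested genes of NADPH supply 1 rose and 1 fell (median 0.32), the 2 isocitrate dehydrogenases that make NADPH. Idh2, the mitochondrial enzyme, was at 148, 173 and 133 FPKM in IgM and 229, 255 and 321 in IgG1 libraries (0.81, SE 0.15, limma adjusted p = 0.0121). Idh1, the cytosolic one, was at 18.8, 24.4 and 17.9 against 10.1, 9.15 and 3.79 (-1.38, SE 0.36, adjusted p = 0.0439). Neither pair of groups overlapped. With the length and GC trend removed Idh2 was at 0.51 (adjusted p = 0.0481) and Idh1 at -1.17 (adjusted p = 0.0898). Idh2 missed the threshold without IgM library 1 (adjusted p = 0.0594) or 3 (0.0523). Idh1 passed without IgG1 library 1 (0.0364) and missed it in the other 5 fits without a library, with adjusted p of up to 0.157.

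Of 21 tested selenoprotein and selenocysteine machinery genes Gpx4 rose and Sepp1 fell (median 0.17). Sepp1, a secreted selenium carrier, was at 51.5, 55.0 and 60.6 FPKM in IgM and 27.9, 30.2 and 16.8 in IgG1 libraries (-1.16, SE 0.23, limma adjusted p = 0.0146; -0.99 and adjusted p = 0.0298 with the trend removed). It missed the threshold without IgM library 1 (adjusted p = 0.0658) or 3 (0.0649). Macrophages express it too, and as for Cybb their part was not tested. In the thioredoxin and glutaredoxin list 0 of 13 genes were called (median 0.18, with 8 positive), where the most abundant over all 6 libraries besides Txn1 was the mitochondrial thioredoxin Txn2 (127 ± 17.1 against 164 ± 30.3, adjusted p = 0.232). In glutathione synthesis, recycling and peroxidases Gpx4 was the 1 of 15 called (median 0.40, with 12 positive). The NRF2 list had 0 of 20 called and 16 positive (median 0.30), and its most abundant genes were the ferritin chains Ftl1 (10975 ± 1419.6 against 14697 ± 1589, adjusted p = 0.0556) and Fth1 (1068 ± 129 against 1369 ± 70.8, adjusted p = 0.0733). Both had groups that did not overlap and were near 0 with the length and GC trend removed or after quantile normalization, at 0.03 and 0.08 for Ftl1 and 0.13 and -0.02 for Fth1.

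The remaining lists had 1 call each, all higher in IgG1, beside 4.26% of all tested genes and 7.63% of those under the median length. Atox1, a copper chaperone, was the 1 of 8 in the list of dismutases, catalase and copper supply (489.6 ± 66.3 against 749 ± 110.5, log2 fold change 0.61, adjusted p = 0.0248; 0.11 with the trend removed). Gstt2 was the 1 of 14 glutathione S-transferases (41.2 ± 3.92 against 64.9 ± 7.21, 0.64, adjusted p = 0.0480), and it missed the threshold without any 1 of the 6 libraries. Pcbp1, an RNA-binding protein that also delivers iron to ferritin, was the 1 of 14 iron and haem genes (1.37, adjusted p = 0.0203; 1.22 and 0.0298 with the trend removed). It was at 60.6, 87.9 and 75.8 FPKM in IgM and at 114, 197 and 318 in IgG1 libraries. Nudt1, which clears oxidised nucleotides, was the 1 of 9 repair genes (16.5 ± 3.29 against 35.8 ± 8.52, 1.07, adjusted p = 0.0294), and Gpx4 the 1 of 6 lipid peroxidation genes. Of the 6 fits without a library, Cyba, Ero1lb, Atox1 and Pcbp1 passed in 2 each and Nudt1 in 1. With the trend removed Gstt2 was at 0.47 (limma adjusted p = 0.203) and Nudt1 at 0.77 (limma adjusted p = 0.134), and both calls were lost.

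**Figure D4:**
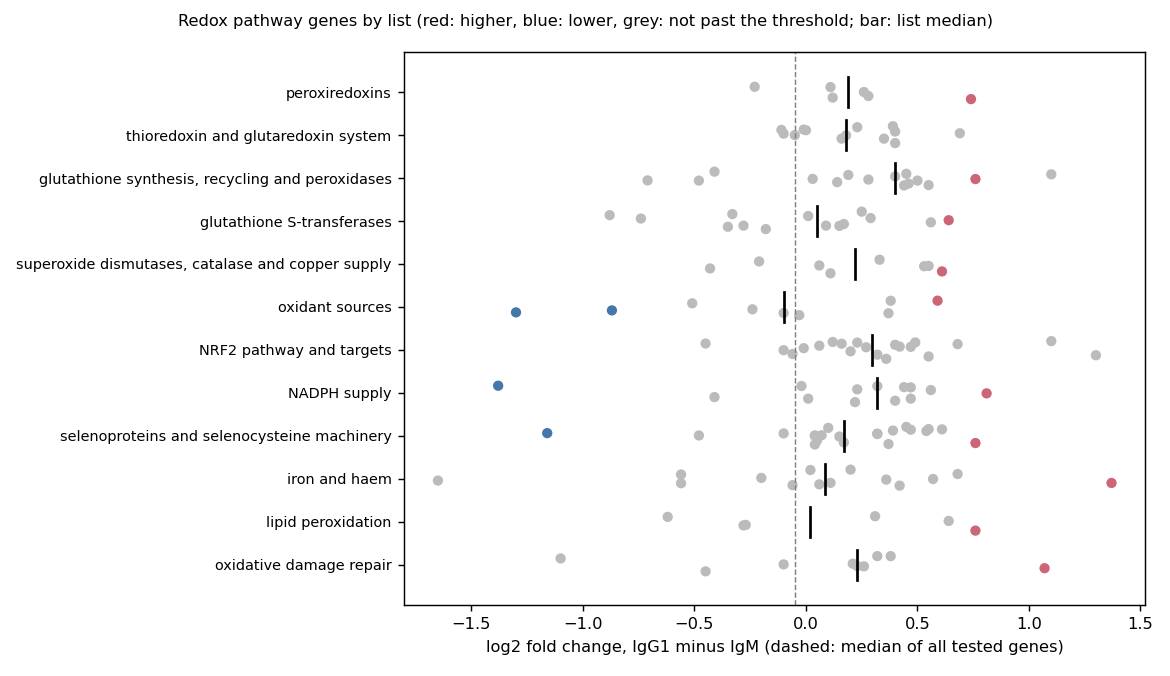
Log2 fold change, IgG1 minus IgM (horizontal axis), of every tested gene in the 12 redox lists, 1 line per list, with members included and a black bar at the list's median. The genes called higher are Prdx2, Gpx4 (in 3 lists), Atox1, Cyba, Gstt2, Idh2, Nudt1 and Pcbp1, and those called lower are Cybb, Ero1lb, Idh1 and Sepp1.

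By likeness of pattern over the 6 libraries, among 3576 other genes with a mean of at least 20 FPKM, Prdx1 was closest to Mrpl36 (Pearson r of log2 values 0.998), and Timm13 was also among its 3 closest (0.970). Prdx4 was closest to Atp6v1c1, Pigx and Wbp11 (0.986, 0.985 and 0.984), and Gpx4 to Gapdh, Rps2 and Eif3h (0.998, 0.997 and 0.996). With 6 libraries and so many genes, values this high are a description, and all points share the libraries and their length trend. Gapdh was at 906, 1244 and 1026 FPKM in IgM and 1399.5, 1726 and 2033 in IgG1 libraries, the same order of libraries as Gpx4.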

How the data were processed

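RNA was isolated with the miRNeasy Micro kit per the labels' protocols, full-length cDNA was made with SMART-Seq HT and libraries with Nextera XT. The deposited values are FPKM per gene symbol, per the file headers. The submitters' processing notes list Cufflinks 2.2.1, Cuffdiff, Bowtie2 2.3.5.1 and TopHat2 2.1.1, with mm10 as the build. Which gene models were used, and how libraries were scaled to each other, is not given in the sources used here. Depth is unknown, so no counting interval is given. Genes above 0 FPKM numbered 11786 to 12187 in IgM and 10865 to 11450 in IgG1 libraries, fewest in IgG1 library 3. The part of this difference in the results was not tested. Summed FPKM ran from 730695 to 806599 in IgM and from 855123 to 914019 in IgG1 libraries.

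A gene was tested where 3 or more libraries had an FPKM of 1 or above, using limma 3.58.1 (R 4.3.3; eBayes with an intensity trend) on log2(FPKM + 1), and fold changes on that scale understate those of low genes. The pseudocount moved no member by more than 0.0115. The adjusted p threshold was 0.05. No label states that the libraries of a group came from different animals. The spread behind each p-value is that of these libraries and may be technical. Single ratios were compared by exact permutation over libraries. Transcript length and GC are medians over GENCODE vM21 basic transcripts, which gave 99.5% of tested genes a value. Gene coordinates come from the same annotation, whose assembly GRCm38 is that of mm10. For the trend removal, each library's deviation from the gene means was fitted with natural splines (4 degrees of freedom each) on log2 length and GC content.

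The procedure was tested on simulated data, drawn independently between genes and without the length trend of the libraries. It recovered 16%, 58%, 98% and 100% of log2 changes of 0.5, 1, 2 and 3, with 6 false calls among 142. Changes of 0.5 were thus mostly missed over the genes drawn, and smaller ones were not simulated. Recovery among genes as abundant as most members was not read apart. The text names the 10 members, up to 3 called genes per list and direction (in a list with none, the 2 most abundant), Prdx3, and the 3 genes most alike to Prdx1, Prdx4 and Gpx4, of which 1 is not reported here. Rnaseh2a, Trmt112, Glrx3 and the marker genes fall outside that rule. The members and lists were chosen with earlier results of these data known. Alternatives were other pseudocounts, filters, scalings, variance settings, array weights, a replicate block, the trend removal and leaving out each library.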

Additional observations from a re-analysis of the deposited data

How the results depend on the processing

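Depth is unknown and each group has 3 libraries, so small differences between the groups could not be resolved. Over all tested genes 387 were called higher and 160 lower. The counts were 2 and 4 without the filter on low values, 3 and 5 without the intensity trend, and 182 and 82 with the length and GC trend removed. The scaling moved the split, with 188 and 200 under quantile normalization, 177 and 393 after rescaling without Jchain (where the median of all genes shifted by -0.21), and 489 and 118 after median centring. Leaving out 1 library gave 78 to 394 higher and 30 to 251 lower.

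Members called higher numbered 2, and 0 without the filter or the intensity trend, 1 with the length and GC trend removed, 3 with the filter at 5 FPKM or median centring, and 1 to 3 without 1 library. Same-numbered IgM and IgG1 libraries did not deviate together (Pearson r 0.101, -0.0315 and -0.000571), so the numbers were not taken to pair them. With a replicate block 4 members were called higher, Gpx1 (adjusted p = 0.0486) and Sod1 (0.0270) being the added ones, and 432 and 154 of all genes. Members called lower numbered 0, and 1 after quantile normalization (Prdx4). Pathway genes beyond the members called higher numbered 6 and lower 4. The former numbered 0 without the filter or the intensity trend, 3 after quantile normalization, rescaling without Jchain or trend removal, and 0 to 7 without 1 library. The latter numbered 0 without the filter or the intensity trend, 2 with the trend removed, and 1 to 4 without 1 library.

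The median log2 fold change of the members was 0.22, and 0.07 after quantile normalization, -0.01 after rescaling without Jchain, 0.12 with the trend removed and 0.17 to 0.31 without 1 library. Signs turned after quantile normalization for Prdx1 (-0.23), Txn1 (-0.03) and Fth1 (-0.02). The rescaling without Jchain turned those of Prdx1 (-0.11), Prdx6 (-0.12), Txn1 (-0.07) and Timm13 (-0.01). With the trend removed they turned for Prdx5 (-0.07), Txnrd1 (0.11) and Timm13 (-0.32), and Txnrd1 ran from -0.19 to 0.09 without 1 library, positive without IgM library 1. The cause was not tested. Without 1 library, the group difference in the Prdx4 share was -10.1 to -5.88 percentage points. It was -0.0225 to -0.00284 for the ratio of Txnrd1 to Txn1 and 0.0625 to 0.134 for that of Gpx4 to Gpx1, so no direction turned without 1 library. A scaling factor per library, the filter and the variance settings cannot change the share and the ratios, so those alternatives say nothing about them. The trend removal can change them, and they are not given with it here. With the trend removed, the log2 fold changes were 0.11 for Txnrd1 and 0.12 for Txn1, and 0.42 for Gpx4 and 0.09 for Gpx1.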
